A study of Mus musculus with 12 samples.

Results

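The complement system is a cascade of plasma proteins, and 9 of its genes were followed here in the aorta of ApoE-/- mice: C1qa, C1qb, C1qc, C1ra, C1s1, C3, C4b, Cfb and Serping1. They were chosen by symbol among the 25284 genes of the count table, and all 9 had a row and passed the filter on low counts, as did 15857 genes in all. RNA was sequenced from the thoracic aorta of 12 male mice aged 18 weeks. Both groups lacked apolipoprotein E, a protein that helps to clear lipoproteins from blood, and were fed a high fat diet, on which such mice develop atherosclerosis. The 6 AZ6983 mice received AZ6983, an agonist of the alpha 7 nicotinic acetylcholine receptor, at 50 µmol per kg per day through osmotic minipumps for 8 weeks. The 6 control mice received vehicle through the same kind of pump for the same time. No mouse with intact Apoe was included, so each comparison is between drug and vehicle within ApoE-/- mice. The wall was sequenced whole, with the cells attached to it, and in such samples fewer cells of a type and less RNA per cell cannot be told apart.

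C1q, made of chains encoded by C1qa, C1qb and C1qc, binds antibody complexes, dying cells and modified lipoproteins. It then activates the proteases C1r and C1s, which cleave C4 and so start the classical pathway. The products of C4 and C2 cleave C3, the protein on which all complement pathways converge, and factor B, encoded by Cfb, forms the C3-cleaving enzyme of the alternative pathway. C1 inhibitor, encoded by Serping1, blocks C1r and C1s. Liver supplies most plasma complement, macrophages are a main source of C1q, and stromal cells such as fibroblasts make several of the other components locally.

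Total counts on genes ranged from 25641329 to 29131708 in the control group and from 23810036 to 35864666 in the AZ6983 group. The smooth muscle genes that define the arterial media were abundant, with a summed level of 11315 to 19343 CPM (counts relative to the library's total, scaled by TMM) over 8 genes. AZ6983 mouse 4 stood apart by thymocyte genes, with a score (the mean log2 CPM of a list) of 7.02 against -2.06 to 2.48 in the other mice. AZ6983 mouse 5 had the highest brown fat score, 8.25 against 6.97 to 7.80, and the lowest smooth muscle score. A further measure that differed between the groups was the share of the table's reads that fell on no gene, 8.02% to 12.7% in control mice and 11.2% to 14.9% in AZ6983 mice.

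The genes lie at 5 places on 4 chromosomes (GRCm38 coordinates, GENCODE M21). C1qb (chr4:136880129-136886187), C1qc (chr4:136889804-136893065) and C1qa (chr4:136895917-136898803) follow one another on the minus strand of chromosome 4. C1ra (chr6:124512405-124523443, plus strand) and C1s1 (chr6:124530345-124542359, minus strand) are neighbours on chromosome 6. C4b (chr17:34728380-34743882) and Cfb (chr17:34856374-34862518) lie in the same stretch of chromosome 17, with C3 (chr17:57203970-57228136) farther along, and all are on the minus strand. Serping1 (chr2:84765387-84775444, minus strand) is alone on chromosome 2.

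The 250 bases before the transcription start are shown for C1qb, C1s1 and C3, as 1 gene each of the C1q chains, of the C1 proteases and of the pair C3 and C4b. The sequences are from RefSeq (GRCm38.p6) and read 5′ to 3′ on the gene's own strand, at chr4:136886201-136886450, chr6:124542360-124542609 and chr17:57228137-57228386, all minus strand. Capitals mark matches, on either strand, to a PU box (GAGGAA, the core bound by the myeloid factor PU.1) or to a C/EBP half-site pair (TTNNGNAA, bound by factors of acute phase and inflammatory genes), and both motifs were picked with these sequences in view.
C1qb: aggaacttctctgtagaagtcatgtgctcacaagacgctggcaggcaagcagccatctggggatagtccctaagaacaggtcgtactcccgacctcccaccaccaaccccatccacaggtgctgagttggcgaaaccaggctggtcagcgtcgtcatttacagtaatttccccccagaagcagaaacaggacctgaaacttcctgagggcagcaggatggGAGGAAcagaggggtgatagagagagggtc
C1s1: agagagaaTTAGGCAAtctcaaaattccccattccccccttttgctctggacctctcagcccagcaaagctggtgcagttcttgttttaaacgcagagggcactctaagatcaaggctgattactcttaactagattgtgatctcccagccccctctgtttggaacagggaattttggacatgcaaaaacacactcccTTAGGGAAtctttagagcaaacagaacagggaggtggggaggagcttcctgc
C3: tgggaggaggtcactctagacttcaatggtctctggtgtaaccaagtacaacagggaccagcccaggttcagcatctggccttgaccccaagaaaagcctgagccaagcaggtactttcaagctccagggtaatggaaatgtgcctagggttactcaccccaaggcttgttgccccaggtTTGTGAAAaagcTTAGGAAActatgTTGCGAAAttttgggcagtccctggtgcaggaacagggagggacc

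The C1qb window held 1 PU box, beginning 30 bases before the start, and no C/EBP match. The C1s1 window held C/EBP matches beginning 242 and 52 bases before the start, and no PU box. The C3 window held C/EBP matches at 3 positions close together, beginning 70, 58 and 45 bases before the start, the last of them on both strands. Matches of these kinds are common. Of 32817 promoter windows of 250 bases, 23.3% held a PU box, 36.8% a C/EBP match and 2.61% C/EBP matches at 3 or more positions, so each match is a description of the letters only. The table of promoters also gave windows for C1qc and C1ra, which overlap annotated exons and are not printed, and held none for C1qa, C4b, Cfb and Serping1. The C1qc window held 1 PU box and also 1 C/EBP match, so the C1q chains were not alike in this. The C1ra window held 2 C/EBP matches and no PU box.

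Per kilobase of annotated exons, C3 was the most abundant of the 9 genes in the aorta. Its level was 292 ± 83.7 CPM per kilobase (SD, n = 12), and it lay above Serping1, at 175 ± 16.1, in 12 of 12 mice. C1qa followed at 98.9 ± 13.0 and C1qb at 79.8 ± 13.7, and C1qa was above C1qb in 12 of 12 mice. C1s1, at 62.9 ± 5.50, was below C1qb in 10 of 12 mice. C4b, at 47.0 ± 8.87, and C1qc, at 44.4 ± 7.33, did not differ in level beyond their spread, with C4b the higher in 7 of 12 mice. C1ra was at 28.3 ± 3.04, and Cfb was far below the others at 0.436 ± 0.101. With the length of the longest transcript in place of all exons, C1qc was at 71.3 and moved above C1s1, and Serping1 was at 230 and below C3 in 8 of 12 mice. The 9 genes together took 0.217% to 0.281% of the counts in control mice and 0.210% to 0.389% in AZ6983 mice, with the highest share in AZ6983 mouse 6.

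**Figure D1:**
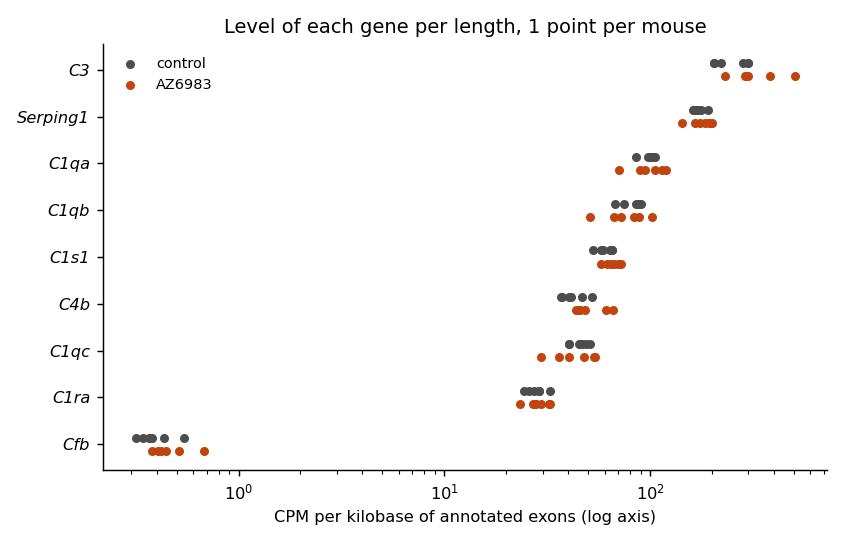
Level of each gene in CPM per kilobase of annotated exons (log axis), 1 point per mouse, control mice in grey and AZ6983 mice in orange. C3 lies at the top with a mean of 292, and Cfb, at 0.436, lies far below the other 8 genes.

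Some of these genes share sequence with others, which bears on their counts. Of the 75-base words of the C1ra exons 42.4% also occur in C1rb or Gm18840, and of C4b 22.7% occur in C4a. Of C1s1 24.8% occur in C1s2 or in Gm16567, an antisense model at the C1s1 locus itself. Words shared with Gm16567 at that locus lie at 1 place of the genome. A read pair can also be placed by its other end, so these shares do not measure how many reads were lost. Reads aligned to more than 1 place were not counted on genes. The levels per kilobase of C1ra, C1s1 and C4b may therefore be too low, and their place in the order above is uncertain. The paralogs themselves had few counts per mouse, 0 to 5 for C1rb, 1 to 12 for C1s2 and 3 to 15 for C4a. None of them passed the filter on low counts of the main test. Without that filter the log2 fold change was 2.32 for C1rb, 1.28 for C1s2 and 0.05 for C4a (adjusted p = 0.529, 0.529 and 0.970, edgeR). Of the Cfb words 69.9% lie also in Gm20547, a model on the same strand that spans Cfb and C2, and the counts of Cfb (26 to 49 per mouse) depend on how such reads were assigned. C1qa, C1qb, C1qc, C3 and Serping1 shared no 75-base word with another gene.

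AZ6983 was compared with vehicle to see whether activating the receptor altered the transcripts of the aorta. None of the 9 complement genes passed the 10% false discovery rate (edgeR quasi-likelihood test, Benjamini-Hochberg adjustment over 15857 genes). Their adjusted p ranged from 0.482 to 0.995, and the same test called 0 of 15857 genes, or 0%. At an unadjusted p under 0.05, 2 of the 9 were higher in AZ6983 mice, C3 and C4b, and 0 were lower. Among all genes tested, 1170 (7.38%) were higher and 446 (2.81%) lower at that level. DESeq2 with its defaults called 92 of 17592 genes (0.523%), and 0 of the 9 were among them. In log2 fold change 7 of the 9 were above 0, beside 52.4% of all genes, and their median was 0.04 beside 0.01 for all genes. The groups did not separate for any of the 9, since 0 of the 9 had groups that do not overlap, while 0.259% of all genes had every AZ6983 mouse above every control mouse and 0.151% the reverse.

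**Figure D2:**
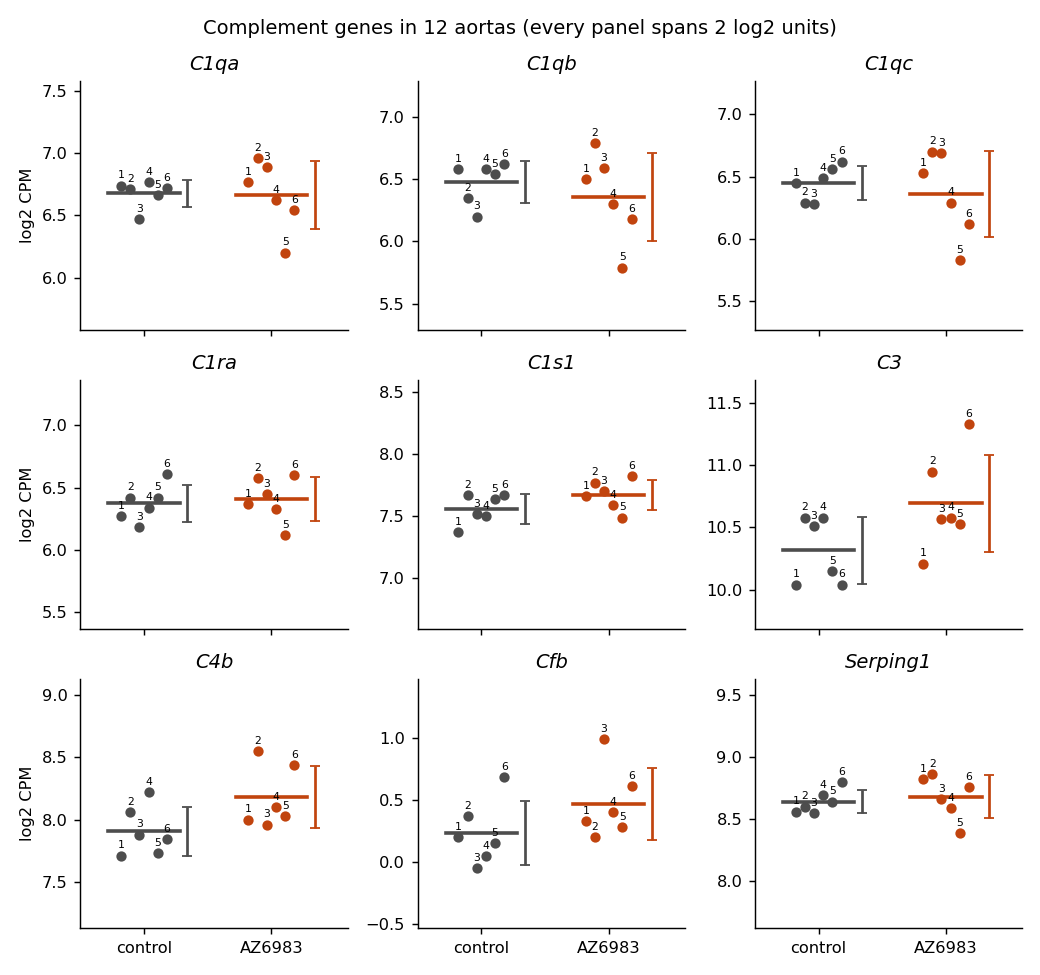
Level of each gene in log2 CPM in control (grey) and AZ6983 (orange) mice. Points are mice with their number, horizontal bars are group means, and error bars are the SD (n = 6). Every panel spans the same range on the log2 scale. The groups overlap for all 9 genes, AZ6983 mouse 6 is the highest for C3, and AZ6983 mouse 5 is the lowest for the C1q chains.

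The 3 C1q chains had almost the same mean in both groups. C1qa was at 88.7, 104.8 and 109.3 CPM (lowest, median, highest) in control mice and at 73.5, 104.0 and 124.6 CPM in AZ6983 mice. C1qb was at 73.6, 94.1 and 98.5 CPM in control mice and at 55.4, 84.8 and 110.7 CPM in AZ6983 mice. C1qc was at 77.9, 88.5 and 98.6 CPM in control mice and at 56.6, 85.1 and 103.6 CPM in AZ6983 mice. For each chain both the lowest and the highest of the 12 mice were AZ6983 mice (mice 5 and 2), so the AZ6983 group spanned the control group on both sides. The log2 fold change was 0.00 ± 0.11 (SE) for C1qa, -0.09 ± 0.14 for C1qb and -0.06 ± 0.14 for C1qc. The 95% intervals of the ratio of AZ6983 to control ran from 0.850 to 1.18 for C1qa, from 0.760 to 1.16 for C1qb and from 0.780 to 1.17 for C1qc. Without AZ6983 mice 4 and 5 the log2 fold changes were 0.10, 0.03 and 0.06, so the sign of C1qb and C1qc turned, and 0 of the 3 passed the threshold.

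The C1q chains varied together, though their ratios spread beyond counting error. The ratio of C1qb to C1qc lay between 0.937 and 1.10 over the 12 mice, with an SD of the log2 ratio of 0.07, where counting error alone would give 0.04. The ratio to C1qa was looser, with C1qa to C1qb between 1.07 and 1.33 (SD of the log2 ratio 0.09, counting error 0.04) and C1qa to C1qc between 1.07 and 1.34 (0.11, counting error 0.04). The level of a single chain varied more, 1.69-fold for C1qa and 1.83-fold for C1qc from the lowest to the highest mouse. After the group means were removed, Pearson's r over the 12 mice was 0.96 between C1qa and C1qb, 0.96 between C1qb and C1qc and 0.92 between C1qa and C1qc.

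C1ra and C1s1, which encode the proteases of the C1 complex, also stayed close to control. C1ra was at 72.7, 83.4 and 97.4 CPM in control mice and at 69.6, 85.1 and 96.6 CPM in AZ6983 mice. Its log2 fold change was 0.04 ± 0.09 (SE). C1s1 was at 164.9, 191.4 and 203.6 CPM in control mice and at 179.9, 205.0 and 226.3 CPM in AZ6983 mice. For C1s1, 3 of 6 AZ6983 mice exceeded every control mouse and 0 fell under the lowest, and the log2 fold change was 0.11 ± 0.07 (adjusted p = 0.578, edgeR). The 2 genes had an r of 0.86 with each other after the group means were removed, and the ratio of C1s1 to C1ra ran from 2.09 to 2.58. Serping1, the gene of the inhibitor of both proteases, was at 375.9, 394.3 and 446.7 CPM in control mice and at 334.2, 419.1 and 465.4 CPM in AZ6983 mice. Its log2 fold change was 0.04 ± 0.08, with a ratio between 0.908 and 1.17 in the 95% interval, and its r was 0.84 with C1ra, 0.74 to 0.79 with the C1q chains and 0.69 with C1s1, so it varied with both kinds of C1 gene.

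C3, the central component, was higher in AZ6983 mice by 1.33-fold, a difference that did not pass the adjusted threshold. It was at 1050, 1295 and 1530 CPM in control mice and at 1183, 1530 and 2583 CPM in AZ6983 mice. AZ6983 mouse 6, at 2583 CPM, and mouse 2, at 1973 CPM, lay clearly above the control range, mouse 4 lay just above it, and AZ6983 mouse 1 lay within its lower part. The log2 fold change was 0.41 ± 0.18 (SE), the 95% interval of the ratio was 1.01 to 1.75, the unadjusted p was 0.0448 and the adjusted p was 0.487 (edgeR). An exact permutation test of the mean log2 CPM over all assignments of the mice to groups gave p = 0.0498 (two-sided, smallest possible 0.00216). That p was above 0.05 with other normalizations (0.0606 with RLE factors, 0.0952 with library totals) and when any mouse other than control mouse 4 or AZ6983 mouse 1 was left out. Without AZ6983 mouse 6 the log2 fold change of C3 was 0.25 (permutation p = 0.134, exact), and without AZ6983 mice 4 and 5 it was 0.48 (adjusted p = 0.455, edgeR).

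C4b, whose product feeds the enzyme that cleaves C3, was higher by 1.21-fold and likewise did not pass. It was at 209.1, 232.8 and 297.7 CPM in control mice and at 249.2, 267.3 and 373.9 CPM in AZ6983 mice. All 6 AZ6983 mice lay above the control median, and mice 2 and 6 exceeded every control mouse. For C4b the log2 fold change was 0.28 ± 0.12 (SE), the 95% interval of the ratio was 1.01 to 1.46, the adjusted p was 0.482 (edgeR) and the exact permutation p was 0.0714. Without AZ6983 mouse 2 the log2 fold change of C4b was 0.18 (unadjusted p = 0.142, edgeR). C3 and C4b varied together, with r = 0.83 after the group means were removed, whereas C3 had an r between -0.26 and -0.06 with the C1q chains.

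Cfb, the alternative pathway factor, had few reads, and its log2 fold change was about as imprecise as that of C3 (SE 0.18). It was at 0.897, 1.06 and 1.53 CPM in control mice (26 to 45 counts) and at 1.08, 1.22 and 1.92 CPM in AZ6983 mice (28 to 49 counts). The log2 fold change was 0.25 ± 0.19 (SE) and the 95% interval of the ratio, 0.897 to 1.58, included no change (adjusted p = 0.626, edgeR). Without AZ6983 mouse 3, the highest, the log2 fold change of Cfb was 0.12, and with limma-voom and quality weights it was 0.40.

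**Figure D3:**
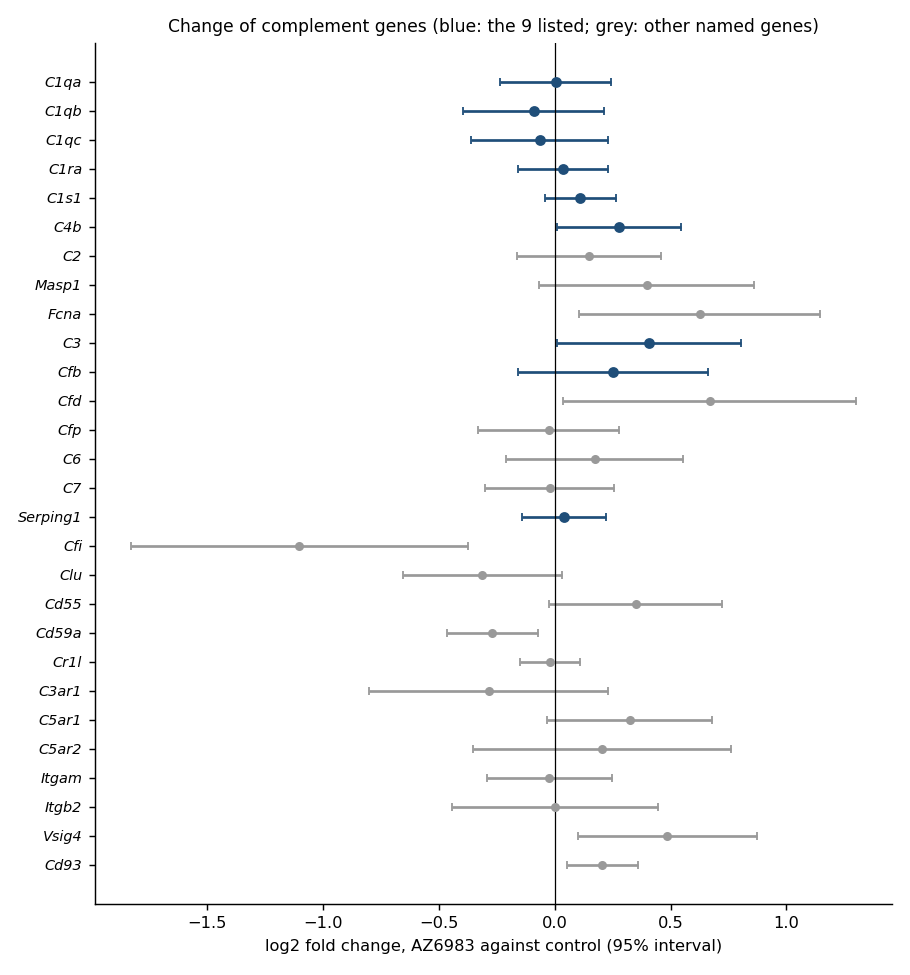
Log2 fold change of AZ6983 against control with its 95% interval (edgeR) for the 9 complement genes (blue) and the other named complement genes that were tested (grey), by role from the C1 complex at the top to receptors at the bottom. Of the 9, the intervals of C3 (0.01 to 0.80) and C4b (0.01 to 0.55) lie just above 0 and the other 7 include 0. No gene in the plot passed the adjusted threshold.

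C3, C4b and C1s1 were higher in mice with a larger share of reads on no gene. Over the 12 mice Pearson's r with this share was 0.75 for C3, 0.77 for C4b and 0.77 for C1s1 (permutation, adjusted p = 0.0125 for each over 9 genes), and Spearman's rho was 0.67, 0.70 and 0.66 (permutation, adjusted p = 0.0677 for each). When the 2 mice with the most extreme shares were left out, r was 0.65 for C3, 0.54 for C4b and 0.57 for C1s1 (permutation, unadjusted p = 0.0326, 0.105 and 0.0843, adjusted p = 0.23 for each), so none of the 3 calls held without those mice. Within the 6 AZ6983 mice r was 0.84 for C3 (exact permutation p = 0.0389) and 0.95 for C4b (exact permutation p = 0.0111), and within the 6 control mice it was 0.42 for C3 (exact permutation p = 0.5) and 0.34 for C4b (exact permutation p = 0.529). For C1s1 it was 0.57 within AZ6983 mice (exact permutation p = 0.244) and 0.85 within control mice (exact permutation p = 0.0306). Since AZ6983 mice also had the larger share, treatment and share overlap. With the share as a covariate the log2 fold change was -0.02 ± 0.23 (SE) for C3, -0.01 ± 0.15 for C4b and -0.05 ± 0.08 for C1s1. The loss was not particular to these genes. Over all 15857 genes, 467 had an unadjusted p under 0.05 with this covariate and 1616 without it (edgeR). The C1q chains had an r between -0.17 and 0.03 with the share.

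**Figure D4:**
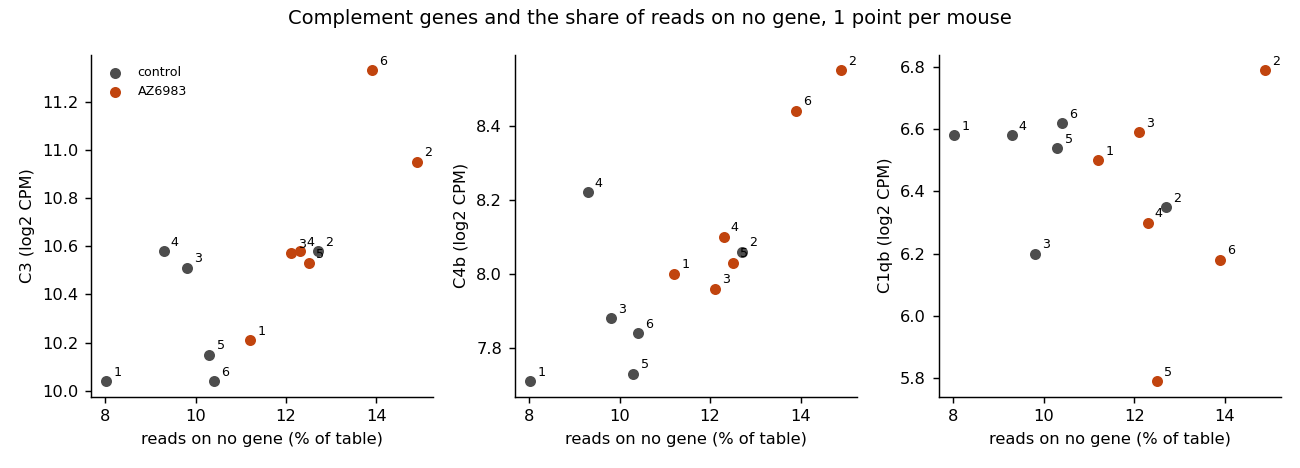
Log2 CPM of C3, C4b and C1qb against the percent of the table's reads on no gene, 1 point per mouse with its number, control in grey and AZ6983 in orange. C3 and C4b are higher in mice with a larger share (r = 0.75 and 0.77 over 12 mice), AZ6983 mice 2 and 6 have the largest shares, and C1qb has no such order (r = -0.16).

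Levels of the C1q chains followed the macrophage score across mice. The score is the mean log2 CPM of 10 macrophage genes, of which Lyz2 had the highest CPM, and it did not differ detectably between groups (5.30 ± 0.19 in control and 5.23 ± 0.34 in AZ6983 mice, SD, n = 6, exact permutation p = 0.682). Pearson's r with this score over the 12 mice was 0.91 for C1qa, 0.92 for C1qb and 0.91 for C1qc (permutation, adjusted p = 0.00096 for each over 36 relations of 9 genes to 4 scores), and Spearman's rho was 0.84, 0.90 and 0.97 (permutation, adjusted p = 0.00999, 0.0045 and 0.00036). Within AZ6983 mice r was 0.97, 0.97 and 0.95 (exact permutation, adjusted p = 0.05 for each), within control mice it was 0.73, 0.77 and 0.77 (exact permutation, adjusted p = 0.49, 0.357 and 0.357), and without AZ6983 mice 4 and 5 it was 0.86, 0.86 and 0.83 (permutation, adjusted p = 0.0268 for each). Without the 2 mice farthest from the median score r was 0.78, 0.83 and 0.85, with unadjusted permutation p of 0.00903, 0.00358 and 0.00195 and adjusted p of 0.108, 0.0644 and 0.0644. The adjusted call was thus not kept without those mice. Leaving them out also narrows the range of scores and leaves 10 mice, so the loss cannot show whether the relation rests on them.

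The fibroblast score, the mean of 10 genes led by Gsn, was 8.50 ± 0.11 in control and 8.55 ± 0.22 in AZ6983 mice (SD, n = 6, exact permutation p = 0.639). Serping1 had the highest r with it, 0.87 (rho 0.80, permutation, adjusted p = 0.00189 and 0.0164), and it had 0.80 with the macrophage score (rho 0.75, permutation, adjusted p = 0.0104 and 0.0318). C1ra had an r of 0.72 with the fibroblast score (rho 0.71, permutation, adjusted p = 0.0293 and 0.0432) and 0.75 with the macrophage score (rho 0.73, permutation, adjusted p = 0.0217 and 0.0414). The C1q chains had an r between 0.78 and 0.81 with the fibroblast score (rho 0.75 to 0.84, permutation, adjusted p = 0.00655 to 0.0106 for r and 0.00999 to 0.0318 for rho). In all, 10 of the 36 relations had an adjusted p under 0.05, all of them positive. None of the 10 kept it without the 2 mice farthest from the median score. The 10 relations are those of the C1q chains, C1ra and Serping1 to both scores. Both scores were lowest in AZ6983 mouse 5 and highest in AZ6983 mouse 2. These relations therefore cannot tell the macrophage from the fibroblast list as the one a gene follows. Within a group the test has little reach, since with 6 mice the smallest exact permutation p is 0.00139, which for a single relation among 36 adjusts to 0.05. Serping1 had an r with the fibroblast score of 0.76 within control and 0.90 within AZ6983 mice, and C1ra had 0.93 and 0.66. C3 had an r of -0.10 with the macrophage and -0.07 with the fibroblast score, and C4b had 0.14 and 0.23. No relation of any of the 9 genes to the white fat or mesothelial score had an adjusted p under 0.05.

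**Figure D5:**
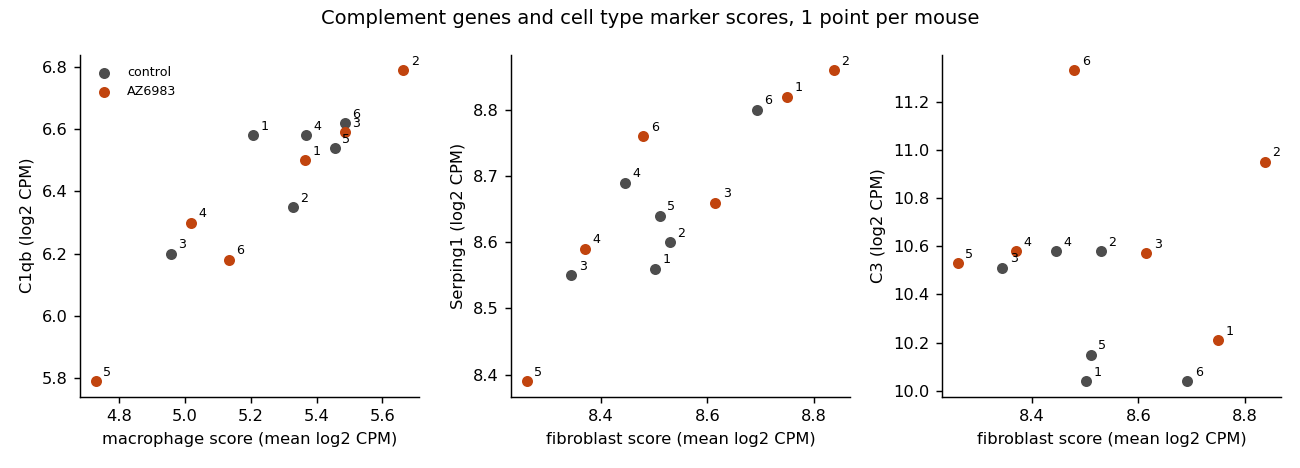
Log2 CPM of C1qb against the macrophage score, and of Serping1 and C3 against the fibroblast score (each score a mean log2 CPM), 1 point per mouse with its number, control in grey and AZ6983 in orange. C1qb and Serping1 increase with the score shown (r = 0.92 and 0.87), AZ6983 mouse 5 lies at the low end of both, and C3 has no such order (r = -0.07).

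Neutrophil and hepatocyte markers were measured as well. The neutrophil score was higher in AZ6983 mice, 2.81 ± 0.89 against 1.28 ± 0.67 (SD, n = 6, exact permutation p = 0.00866). All 8 of its genes were higher at an unadjusted p under 0.05 (edgeR), beside 7.38% of all genes tested. None of the 8 passed the adjusted threshold, which 0 of 15857 genes passed in that test. The paper, with DESeq2 at 10% FDR, lists Ngp, Csf3r and Camp of these 8 as higher. Their summed level was 16.3 to 62.2 CPM in control and 35.8 to 251.5 CPM in AZ6983 mice, it was highest in AZ6983 mouse 6, which also had the most C3, and its part in the C3 and C4b differences was not tested. Of the 8 hepatocyte genes, 6 had few counts per mouse, 0 to 69 for Alb, the gene of albumin, 7 to 20 for Apoa2, 0 to 5 for Ttr, 0 to 6 for Serpina1a, 0 to 16 for Fgb and 0 to 8 for Tat. Ahsg had 93 to 335 and Cyp2e1, which fat also expresses, had 1054 to 8119.

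The genes with the most similar pattern over the 12 mice, after the group means were removed, were taken from the 15856 other tested genes. For C1qb they were Tyrobp (r = 0.97), which encodes an adaptor of myeloid receptors, Trem2 (0.97), a lipid-sensing macrophage receptor that is also in the macrophage list, C1qa, Capg and C1qc. For C1qa they were C1qb, Tyrobp (0.95), Kdelr3 (0.94), Lrrc14 (0.94) and P4hb (0.94), of which Kdelr3 and P4hb serve the endoplasmic reticulum. For C1qc they were C1qb, Gla (0.95), a lysosomal enzyme, Tyrobp (0.95), Trem2 (0.95) and Dcn (0.95), a fibroblast proteoglycan. For Serping1 the nearest were Adamtsl3 (0.95), Colgalt1 (0.95), which modifies collagen, Tbx18 (0.94), Plxdc2 and Enpp1. For C1ra they were Nfam1 (0.92), Tmtc2 (0.92), Gna15 (0.91), Btk (0.91), a kinase of B and myeloid cells, and Zfp658 (0.91). Zfp658 was also the nearest to C1s1 (0.96), followed by 6720475M21Rik, RP23-32A8.3, Slco1c1 and Xylt1. For C3 the nearest was Klhl18 (0.97), followed by C79130 (0.91), Usp31, Bst1 and Bysl, and for C4b they were Ptpn12 (0.91), Uhrf1bp1l, Tulp3, Ece1 and Tbc1d14. For Cfb they were Gm20712 (0.90), 0610007P14Rik, Lst1, Gm25835 and Zfp560. Each of these r is among the highest of 15856 over only 12 mice, so it is large in part by selection. The r that unrelated genes would reach in such a search was not computed.

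Of the other complement genes, 44 had a row and 30 were tested, and 0 passed the adjusted threshold. Of the 30, 15 were above and 15 below 0 in log2 fold change, with a median of -0.01. At an unadjusted p under 0.05 (edgeR), 4 of the 30 were higher and 2 lower, beside 7.38% and 2.81% of all genes tested. In the classical and lectin pathways, C2, which pairs with C4, was at 6.66 ± 1.21 CPM in control and 7.37 ± 1.25 CPM in AZ6983 mice (SD, n = 6). Fcna, a lectin that recognises sugars, had a log2 fold change of 0.63 ± 0.24 (SE, adjusted p = 0.450, edgeR), from 12.3 ± 1.999 to 19.0 ± 8.11 CPM (SD), and Masp1, a lectin pathway protease, had 0.40 ± 0.21 on 23 to 72 counts per mouse. Adjusted for the no-gene share of reads, Fcna was at 0.997 and C2 at -0.10 in log2 fold change. With 1 mouse left out Fcna ran from 0.44 (without AZ6983 mouse 1, its highest) to 0.72 (without AZ6983 mouse 5).

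In the alternative pathway, Cfd, the gene of the fat cell protease adipsin, was at 469 ± 243 CPM in control and 746 ± 101 CPM in AZ6983 mice, which is 0.67 ± 0.29 on the log2 scale (SE, adjusted p = 0.477, edgeR). For Cfd 1 of 6 AZ6983 mice exceeded every control mouse, and all 6 lay above the control median. The white fat score was 7.79 ± 0.20 in control and 7.77 ± 0.23 in AZ6983 mice (SD). Adjusted for the no-gene share of reads, the log2 fold change of Cfd was 0.40. With 1 mouse left out it ran from 0.50 (without control mouse 6) to 0.91 (without control mouse 2). Cfp, the gene of properdin, which stabilises the C3-cleaving enzyme, had -0.03 ± 0.14. Of the terminal genes C7 was at 279.5 ± 21.5 and 275.4 ± 62.8 CPM, C6 was at 3.70 ± 0.48 and 4.16 ± 1.09 CPM, and Hc, the gene of C5, was counted 0 to 6 times in a control mouse and 0 to 2 times in an AZ6983 mouse.

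Among inhibitors, Cfi, the protease that inactivates C3b, had the most negative value of the named genes, -1.10 ± 0.34 (SE, adjusted p = 0.447, edgeR), on 11 to 33 counts in control and 3 to 16 in AZ6983 mice, and 5 of 6 AZ6983 mice lay below the lowest control. Cd59a, which blocks the membrane attack complex, was at 57.9 ± 4.13 and 48.1 ± 7.13 CPM (SD), with 5 of 6 AZ6983 mice below the lowest control and a log2 fold change of -0.27 ± 0.09 (SE, adjusted p = 0.450, edgeR). Clu had -0.31 ± 0.16, Cd55 had 0.35 ± 0.17 and Cr1l had -0.02 ± 0.06. Adjusted for the no-gene share of reads, Cfi was at -1.36 ± 0.51 (SE), Cd59a at -0.14 (unadjusted p = 0.267, edgeR), Clu at -0.17 and Cd55 at 0.05. Cd55 was at 0.21 without AZ6983 mouse 4, and Clu was at -0.17 without AZ6983 mice 4 and 5. Over all alternatives Cd59a ran from -0.37, without AZ6983 mouse 5 (adjusted p = 0.109, edgeR), to the -0.14 given above.

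Among receptors, Cd93, an endothelial and myeloid surface protein once described as a C1q receptor, was at 126.4 ± 11.04 and 145.8 ± 11.46 CPM (SD), with 4 of 6 AZ6983 mice higher than every control mouse and a log2 fold change of 0.21 ± 0.07 (SE, adjusted p = 0.450, edgeR). Vsig4, the C3b receptor of resident macrophages, was at 2.67 ± 0.10 and 3.74 ± 1.02 CPM (SD), with 5 of 6 AZ6983 mice above the highest control and 1 below the lowest, and a log2 fold change of 0.49 ± 0.18 (SE, adjusted p = 0.450, edgeR). The anaphylatoxin receptors C3ar1, C5ar1 and C5ar2 had -0.28 ± 0.24, 0.32 ± 0.16 and 0.20 ± 0.26 (SE), and the chains of complement receptor 3, Itgam and Itgb2, had -0.02 ± 0.12 and 0.00 ± 0.21. C5ar2 had only 10 to 23 counts per mouse. Adjusted for the no-gene share of reads, Vsig4 was at 0.54, C5ar1 at 0.31, Cd93 at 0.13 and C3ar1 at -0.58. C3ar1 was at -0.08 without AZ6983 mice 4 and 5 and at -0.49 without AZ6983 mouse 2. C5ar1 was at 0.19 without AZ6983 mouse 3.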

How the data were processed

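RNA of the thoracic aorta of 12 mice had been depleted of ribosomal RNA and made into stranded libraries by the authors, who sequenced both ends by 75 bases. The authors deposited raw counts per gene symbol in 1 table. The submitters' processing notes name CASAVA 1.8.2, STAR 2.5.2b, HTSeq 0.6.1p1 and mm10. The annotation and the strand setting of the counting are not given in the sources used here. The 3 rows that name no gene (reads on no gene, aligned to more than 1 place, or ambiguous; 8.02% to 14.9%, 18.1% to 23.2% and 0.606% to 0.698% of the table per mouse) entered neither library sizes nor tests. Groups came from the sample labels. The column taken for AZ6983 mouse 1 matches its label in 3 of 4 digits and matches no other label. Beyond the mouse numbers, the column headers hold only a suffix of S and a number, and a letter A for AZ6983 mouse 1, all unexplained. The replicates are separate animals.

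Members and gene lists were chosen with earlier results of these data known. The genes named are the 9, a list of other complement genes, any further complement gene with an unadjusted p under 0.05 or groups that do not overlap, and the 5 tested genes nearest to each of the 9. C8b was not analysed here, and some complement genes are not reported here. The test was edgeR 4.0.16 under R 4.3.3 (TMM, filterByExpr, quasi-likelihood test, no covariate, 10% FDR). The SE is the log2 fold change over the square root of F. Log2 CPM used a prior count of 2. Single differences used exact permutation, and relations across 12 or 10 mice used 100000 permutations. The authors used DESeq2, which was an alternative here (1.42.0), as were limma-voom 3.58.1 with and without quality weights, RLE factors, library totals, no filter, 1 surrogate variable (sva 3.50.0), a fit adjusted for the share of reads on no gene, and each mouse left out. The fit without AZ6983 mice 4 and 5, the permutation tests under other settings and the relations to the share of reads on no gene were added after the data were seen. Genes with few reads are less precise. Tested on simulated data of this comparison over 15857 genes at 10% FDR, edgeR recovered 88 of 100 genes changed 3-fold and 51 of 100 changed 1.5-fold with 16 false calls, and DESeq2 92 and 66 with 66 false calls.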

Additional observations from a re-analysis of the deposited data

Results flagged for a closer look

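In 78 groups of 6 mice (each gene or score in each treatment group), the highest or lowest mouse was examined for a gap to the others, and 4 groups had one beyond Dixon's 95% critical value, where chance gives about 1 in 20, or 3.9. C1qa was at 6.47 log2 CPM in control mouse 3 and at 6.66 to 6.77 in the other control mice. The endothelial score was 6.51 in control mouse 6 and 6.68 to 6.70 in the other control mice. The brown fat score was 7.07 in control mouse 6 and 7.58 to 7.80 in the other control mice. The mesothelial score was -0.38 in AZ6983 mouse 3 and 1.54 to 2.30 in the other AZ6983 mice.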

How the results depend on the processing

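None of the 9 complement genes passed 10% FDR under any of the 22 alternatives, adjusted p was 0.253 or higher in all of them, and no gene of the 9 had groups that do not overlap with either other normalization or without any 1 mouse. Over all genes, the count at 10% FDR was 0 with the filter removed, RLE factors, limma-voom, 1 surrogate variable or adjustment for the no-gene share of reads, 2 with library totals, 92 and 84 with DESeq2 on every and on filtered genes, 4 with limma-voom and quality weights, and 0 to 27 when a mouse was left out (27 without AZ6983 mouse 5, 1 without AZ6983 mouse 1 and 1 without control mouse 6). The cause was not tested. No paired analysis was possible because the labels give no replicate numbers that the groups share.

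After adjustment for the no-gene share of reads the log2 fold change changed sign for C1qa (-0.0334), C1ra (-0.126), C1s1 (-0.0463), C3 (-0.0171), C4b (-0.00716), Serping1 (-0.0236), C2 (-0.103), Cr1l (0.0643), C6 (-0.0349), C5ar2 (-0.153) and Itgb2 (-0.225). C1qa, near 0, was also below 0 without the filter (-0.0176), with DESeq2 on every gene (-0.00629), limma-voom (-0.0154) and 1 surrogate variable (-0.00547). Itgb2 was below 0 without the filter (-0.0198), with RLE factors (-1.35e-05), DESeq2 on every gene (-0.007) and on filtered genes (-0.000534), limma-voom without (-0.00487) and with quality weights (-0.0235), and 1 surrogate variable (-0.0151). With quality weights Cfp (0.0163) and Itgam (0.049) were above 0. Without AZ6983 mice 4 and 5, C1qb (0.0317), C1qc (0.0558), Cfp (0.0179), C7 (0.11) and Itgam (0.0731) were above 0.

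With 1 mouse left out the log2 fold change ran from -0.0733 to 0.0643 for C1qa, -0.149 to 0.0068 for C1qc, -0.0131 to 0.0854 for C1ra, -0.0106 to 0.0768 for Serping1, -0.0956 to 0.0463 for Cfp, -0.0538 to 0.00282 for Cr1l, -0.144 to 0.0318 for C7, -0.119 to 0.0281 for Itgam and -0.108 to 0.0927 for Itgb2, each with both signs. The difference in mean log2 CPM ran from -0.0896 to 0.0589 for C1qa, -0.0181 to 0.0792 for C1ra and -0.0167 to 0.0752 for Serping1. It ran from 0.181 to 0.332 for C4b, with an exact permutation p of 0.167 without AZ6983 mouse 2 and 0.0216 without control mouse 4, and from 0.127 to 0.322 for Cfb, with an exact permutation p of 0.338 without AZ6983 mouse 3 and 0.0411 without control mouse 6.

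Of the relations to marker scores, 10 had an adjusted p under 0.05 with all 12 mice and also with a prior count of 0.5, 4 without AZ6983 mice 4 and 5, 0 without the 2 mice farthest from the median score, and 0 within control or within AZ6983 mice, where each holds 6 mice. Depth limits Cfi, C5ar2 and Cfb, each with under 50 counts per mouse.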
